A study of Mus musculus with 22 samples.

Results

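The genes described here are 9 mouse genes of epithelial ion and water transport: Scnn1a, Scnn1b, Scnn1g, Atp1b1, Cftr, Slc12a2, Slc26a4, Aqp1 and Aqp4. They were chosen by gene symbol, and all 18 probe sets annotated to these symbols were followed, out of 45037 probe sets that are not controls. A probe set is a group of short probes on an Affymetrix array that together read a transcript, and 18193 genes had at least 1 probe set with a single symbol. No probe set of the 9 genes was annotated to a second symbol.

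Messenger RNA was measured on 22 arrays. The first group was 3 arrays of A2C12 side population cells treated with a monoclonal antibody against mouse EpCAM, an adhesion protein of epithelia, at 100 µg/ml for 48 h, and the second was 3 arrays of untreated A2C12 side population cells. Both were set against lung of non-transgenic C57BL/6 mice, with 8 arrays labelled female and 8 labelled male and no age given. A2C12 is 1 line, established from a lung tumour of a C57BL/6 mouse with a c-myc and a c-raf transgene, so that treated and untreated cells share both transgenes. The side population is the fraction that expels the DNA dye Hoechst, collected here by flow cytometry, and unsorted cells were not analysed here. The labels call the arrays of a group biological replicates, but for the cells these are preparations of 1 line, and their spread is not a spread between tumours.

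Epithelia of the lung keep their surface liquid thin by moving salt, which water follows. Sodium enters through the epithelial sodium channel ENaC, built of alpha, beta and gamma subunits (Scnn1a, Scnn1b, Scnn1g), and is pumped out on the other face by the Na,K-ATPase, whose beta 1 subunit is Atp1b1. Chloride is taken up by the cotransporter NKCC1 (Slc12a2) and leaves through the channel CFTR, while pendrin (Slc26a4) exchanges chloride for bicarbonate and other anions. Aqp1 is the water channel of lung capillary endothelium and Aqp4 one of the basolateral face of airway epithelium.

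The deposited values were intensities on a linear scale, with means of 291 to 304 on the cell arrays and 270 to 313 on the lung arrays. The 40th percentile of an array, used here as the limit above which a probe set counts as read, lay at 24.6 to 25.8 on the cell arrays and 30.1 to 33.7 on the lung arrays. The poly-A control transcript dap, which is added during RNA labelling, lay at 246 to 482 on the cell arrays and 0.00274 to 1.25 on the lung arrays, so cells and lung also differed in this control, and array preparation and sample type cannot be told apart. Gapdh gave log2 ratios of its 3' to its 5' probe set of -0.13 to 0.403 in cells and 0.22 to 1.02 in lung. Epcam, the target of the antibody and a defining marker of epithelium, averaged 4.22 ± 6.02 in antibody-treated cells and 3.19 ± 2.88 in untreated cells (SD, n = 3 each), against 842 ± 270 in lung (SD, n = 16). The arrays labelled male 3 and male 4 went against their label. Their intensity of Xist, the RNA of the inactive X chromosome, was 984 and 963, within the 398 to 1050 of the 8 female-labelled arrays and above the 0.00331 to 1.57 of the other 6 arrays with a male label. Their intensity of the Y-linked gene Uty was 8.27 and 9.46, against 722 to 1250 on those 6 arrays. Each result on lung is therefore given with these arrays and, where it moves, without them.

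The first question was how far the cells express these genes relative to normal lung. All 9 genes were lower than lung in both cell groups by at least 1 probe set, and by log2 changes from -1.27 to -6.05 among the probe sets called in antibody-treated cells and from -1.72 to -6.03 among those called in untreated cells. A probe set was called when its limma adjusted p was under 0.05 and its change was at least 2-fold, on the scale log2(intensity + 16), after quantile normalization. Of the 18 probe sets, 16 passed the filter on low values. In antibody-treated cells 13 of these 16 were lower and none was higher, where 19.6% of all 32422 tested probe sets were lower and 19.8% were higher. In untreated cells 14 of the 16 were lower and none was higher, where 19.6% of all 32533 tested probe sets were lower and 20.1% were higher. The median log2 change of the 16 was -4.00 in antibody-treated cells, against 0.125 over all tested probe sets, and -4.16 in untreated cells, against 0.145. Only 9 of the 16 were read on at least 3 of the 6 cell arrays, so the other 7 entered through lung alone and had to differ. These were the tested probe sets of Scnn1a, Scnn1b, Scnn1g, Slc26a4 and Aqp4 and the Cftr probe set 1420579_s_at, and for them the log2 changes and p given below, like these counts and medians, are a description of signal in lung against cells near background. The 2 comparisons share their lung arrays and are not independent of each other. In these bulk samples, fewer cells of a type and less RNA per cell cannot be told apart.

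**Figure D1:**
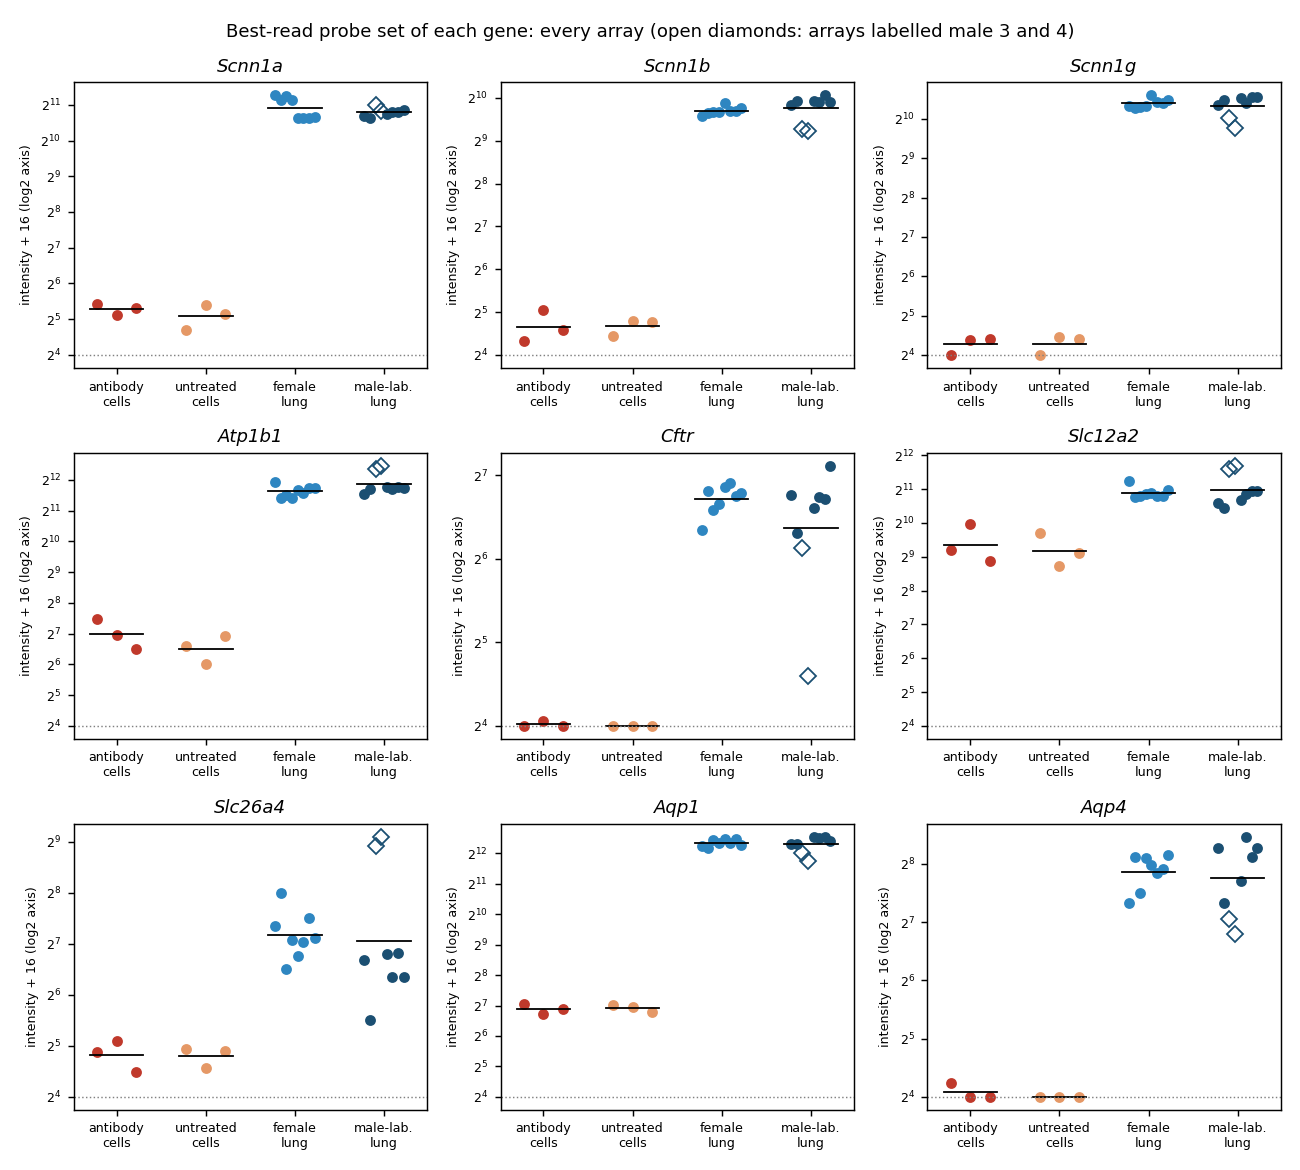
Intensity + 16 on a log2 axis for the best-read probe set of each gene (the one with the highest mean over 22 arrays). Points are arrays of antibody-treated cells, untreated cells, female-labelled lung and male-labelled lung, black lines are group means on the log2 scale, open diamonds are the arrays labelled male 3 and male 4, and the dotted line is an intensity of 0. In all 9 panels the cell arrays lie below every lung array, with the smallest gaps for Slc26a4, whose highest cell array is at 18.0 and lowest lung array at 29.4, and for Slc12a2, whose highest cell array is at 978 and lowest lung array at 1379. Scnn1a, Scnn1b, Scnn1g, Cftr, Slc26a4 and Aqp4 entered the test through lung alone, so their gaps follow largely from the filter. How many of all probe sets separate cells from lung in this way was not counted.

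The 3 ENaC subunits were near the floor of the cell arrays and well read in lung. Scnn1a (probe set 1425088_at), the pore subunit that the channel cannot do without, had 26.6, 18.7 and 23.8 in antibody-treated cells and 9.85, 26.4 and 19.6 in untreated cells, against 1564, 1776 and 2444 in lung (lowest, median and highest of 16). Its groups of cells and lung did not overlap, and only 2 of the 6 cell arrays passed the 40th percentile. The log2 change against lung was -5.43 ± 0.14 in antibody-treated cells (SE; limma, adjusted p = 8.79e-21) and -5.64 ± 0.14 in untreated cells (limma, adjusted p = 3.94e-21).

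Scnn1b (1418475_at), the beta subunit, had 4.17, 17.1 and 7.77 in antibody-treated cells and 5.76, 11.8 and 11.3 in untreated cells, against 585, 838 and 1051 in lung. Scnn1g (1419079_at), the gamma subunit, had 0.0149, 4.99 and 5.20 in antibody-treated cells and 0.00704, 5.95 and 5.04 in untreated cells, against 849, 1336 and 1533 in lung. No cell array read either gene, and all 16 lung arrays read both. The log2 change of Scnn1b was -4.98 ± 0.15 in antibody-treated cells (limma, adjusted p = 1.18e-19) and -4.96 ± 0.15 in untreated cells (limma, adjusted p = 1.29e-19). That of Scnn1g was -6.05 ± 0.14 in antibody-treated cells (limma, adjusted p = 7.09e-22) and -6.03 ± 0.14 in untreated cells (limma, adjusted p = 7.60e-22). With so little signal in the cells the size of the fall depends on the offset: in untreated cells that of Scnn1g was -8.36 with an offset of 1 and -4.33 with an offset of 64.

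Scnn1b and Scnn1g lie on the same chromosome, 7, and both lay below the range of the other lung arrays on the arrays labelled male 3 and male 4, as given further on. Their promoters are shown because of this, from RefSeq on GRCm38.p6, each from 250 bases before to 50 bases after the annotated start. Capitals mark the matches, on either strand, to GGGCGG (the GC box) and CAAGTG (the core of the NKX2-1 site), of 4 motifs searched, the others being TATAAA (the TATA box) and AGAACA (a glucocorticoid receptor motif).
Scnn1g, chr7:121734229-121734528, + strand: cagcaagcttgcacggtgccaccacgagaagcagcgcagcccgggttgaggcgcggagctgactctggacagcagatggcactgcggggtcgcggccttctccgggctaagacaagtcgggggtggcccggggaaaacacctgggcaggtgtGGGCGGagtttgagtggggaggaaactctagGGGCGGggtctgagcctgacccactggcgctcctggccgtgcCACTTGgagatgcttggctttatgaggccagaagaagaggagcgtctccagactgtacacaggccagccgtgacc
Scnn1b, chr7:121864788-121865087, + strand: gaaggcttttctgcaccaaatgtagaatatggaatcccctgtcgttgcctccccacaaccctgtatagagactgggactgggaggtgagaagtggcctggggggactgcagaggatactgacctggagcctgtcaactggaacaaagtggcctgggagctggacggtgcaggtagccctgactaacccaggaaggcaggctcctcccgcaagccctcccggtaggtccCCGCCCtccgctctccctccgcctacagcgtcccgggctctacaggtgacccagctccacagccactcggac
The Scnn1g window held 2 GC boxes, at -98 and -67 from the start, and CAAGTG on the reverse strand at -25. The Scnn1b window held 1 GC box, on the reverse strand at -22. GGGCGG was present in 35.7% and CAAGTG in 13.6% of 32851 promoters of this length, so these matches are common, and they are letters and not measured binding. Of the 9 genes 6 had a promoter in the table.

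Atp1b1, the beta 1 subunit that carries the sodium pump to the membrane, was read by 5 probe sets that did not agree. The best-read, 1423890_x_at, had 161, 108 and 75.1 in antibody-treated cells and 81.0, 48.5 and 105 in untreated cells, against 2720, 3341 and 5566 in lung. Cells and lung did not overlap, but unlike the ENaC subunits this probe set was read on all 6 cell arrays. Its log2 change was -4.60 ± 0.18 in antibody-treated cells (limma, adjusted p = 2.83e-17) and -5.03 ± 0.18 in untreated cells (limma, adjusted p = 4.55e-18). The probe sets 1418453_a_at, 1439036_a_at and 1451152_a_at fell likewise, by log2 changes of -4.61, -5.32 and -4.35 in antibody-treated cells and -4.73, -5.66 and -4.59 in untreated cells. The fifth, 1455949_at, had 88.2, 124 and 83.8 in antibody-treated cells and 105, 90.1 and 110 in untreated cells, against 56.0, 73.5 and 104 in lung. Its groups overlapped, its log2 change of 0.60 ± 0.15 in antibody-treated cells and 0.66 ± 0.15 in untreated cells was under 2-fold, and it was not called, although its limma adjusted p was 0.00114 and 3.94e-04. What part of the transcript each probe set reads is not given in the sources used here.

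Cftr, the chloride channel mutated in human cystic fibrosis, was listed near 0 on the cell arrays. Its probe set 1420579_s_at had 0.00753, 0.642 and 0.00813 in antibody-treated cells and 0.00554, 0.00322 and 0.0359 in untreated cells, against 8.13, 90.0 and 122 in lung. All cell arrays lay below all lung arrays, and the lowest lung array, male 4, stood apart from the next, male 3, at 54.1. The log2 change was -2.42 ± 0.27 in antibody-treated cells (limma, adjusted p = 1.17e-08) and -2.43 ± 0.27 in untreated cells (limma, adjusted p = 1.09e-08), with an offset that sets most of its size: in untreated cells it was -5.89 with an offset of 1 and -1.10 with an offset of 64. A second Cftr probe set, 1427767_a_at, reached at most 4.69 in antibody-treated cells, 0.936 in untreated cells and 4.80 in lung, and was not tested. The call of Cftr therefore rests on 1420579_s_at alone, a type of probe set that can also bind other transcripts.

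Slc12a2, the sodium, potassium and chloride cotransporter that loads chloride into secretory cells, was read on all 6 cell arrays by all 3 of its probe sets. Its probe set 1417622_at had 568, 978 and 454 in antibody-treated cells and 825, 405 and 542 in untreated cells, against 1379, 1838 and 3261 in lung. The groups did not overlap, and the log2 change was -1.56 ± 0.21 in antibody-treated cells (limma, adjusted p = 2.77e-07) and -1.72 ± 0.21 in untreated cells (limma, adjusted p = 5.71e-08). In untreated cells its other probe sets fell too, 1417623_at with a log2 change of -2.02 ± 0.24 and 1448780_at with -1.86 ± 0.26. In antibody-treated cells 1417623_at fell, with a log2 change of -1.27 ± 0.24, while the change of 1448780_at, -0.92 ± 0.26, was under 2-fold and was not called (limma, adjusted p = 0.00244). The call of 1417623_at in antibody-treated cells was lost without antibody replicate 3 (log2 change -0.89).

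Slc26a4, the anion exchanger pendrin, had 13.4, 18.0 and 6.28 in antibody-treated cells and 14.8, 7.72 and 13.9 in untreated cells, against 29.4, 106 and 530 in lung (1419725_at). No cell array read it, and 15 of the 16 lung arrays did. The log2 change was -2.11 ± 0.49 in antibody-treated cells (limma, adjusted p = 4.24e-04) and -2.13 ± 0.49 in untreated cells (limma, adjusted p = 3.81e-04). Its SE was the largest of the 16 probe sets, and without the arrays labelled male 3 and male 4 the change was -1.77 ± 0.25 in antibody-treated cells and -1.79 ± 0.25 in untreated cells. Its promoter is shown because Slc26a4 lay above that range on male 3 and male 4, where Scnn1b and Scnn1g lay below it, with TATAAA and the reverse match of AGAACA in capitals.
Slc26a4, chr12:31559935-31560234, - strand: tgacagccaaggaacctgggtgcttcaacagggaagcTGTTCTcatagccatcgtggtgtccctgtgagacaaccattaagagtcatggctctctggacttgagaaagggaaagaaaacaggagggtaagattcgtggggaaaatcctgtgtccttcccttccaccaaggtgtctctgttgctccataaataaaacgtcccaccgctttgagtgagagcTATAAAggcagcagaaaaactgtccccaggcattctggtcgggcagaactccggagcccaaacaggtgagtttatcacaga
TATAAA stood at -31 and AGAACA, on the reverse strand, at -213 from the start. TATAAA was present in 13.6% and AGAACA in 19.0% of the 32851 promoters. No GC box was found in this window, while those of Cftr, Atp1b1 and Aqp1 held 6, 2 and 1.

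The water channels differed in what was left in the cells. Aqp1 (1416203_at), the channel of lung endothelium, had 117, 89.6 and 103 in antibody-treated cells and 113, 108 and 93.8 in untreated cells, against 3459, 5205 and 5925 in lung. It was read on all 6 cell arrays, and its log2 change was -5.29 ± 0.14 in antibody-treated cells (limma, adjusted p = 1.74e-20) and -5.25 ± 0.14 in untreated cells (limma, adjusted p = 1.99e-20). Aqp4 (1434449_at) had 2.87, 0.00271 and 0.00159 in antibody-treated cells and 0.0122, 0.00885 and 0.00703 in untreated cells, against 95.7, 230 and 336 in lung. It was read on no cell array and on every lung array, with log2 changes of -3.64 ± 0.22 in antibody-treated cells (limma, adjusted p = 2.39e-13) and -3.73 ± 0.22 in untreated cells (limma, adjusted p = 1.46e-13). The Aqp4 probe set 1425382_a_at had 2.45 to 8.00 in antibody-treated cells and 3.82 to 6.80 in untreated cells, against 14.8 to 43.4 in lung. Its log2 changes of -0.89 ± 0.16 and -0.83 ± 0.16 were under 2-fold with the offset of 16, and it was not called. The limma adjusted p was 2.63e-05 and 6.20e-05, and at such low values the offset holds down the size of the change. The probe set 1447745_at, at 9.52 to 29.2 in lung, was not tested.

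**Figure D2:**
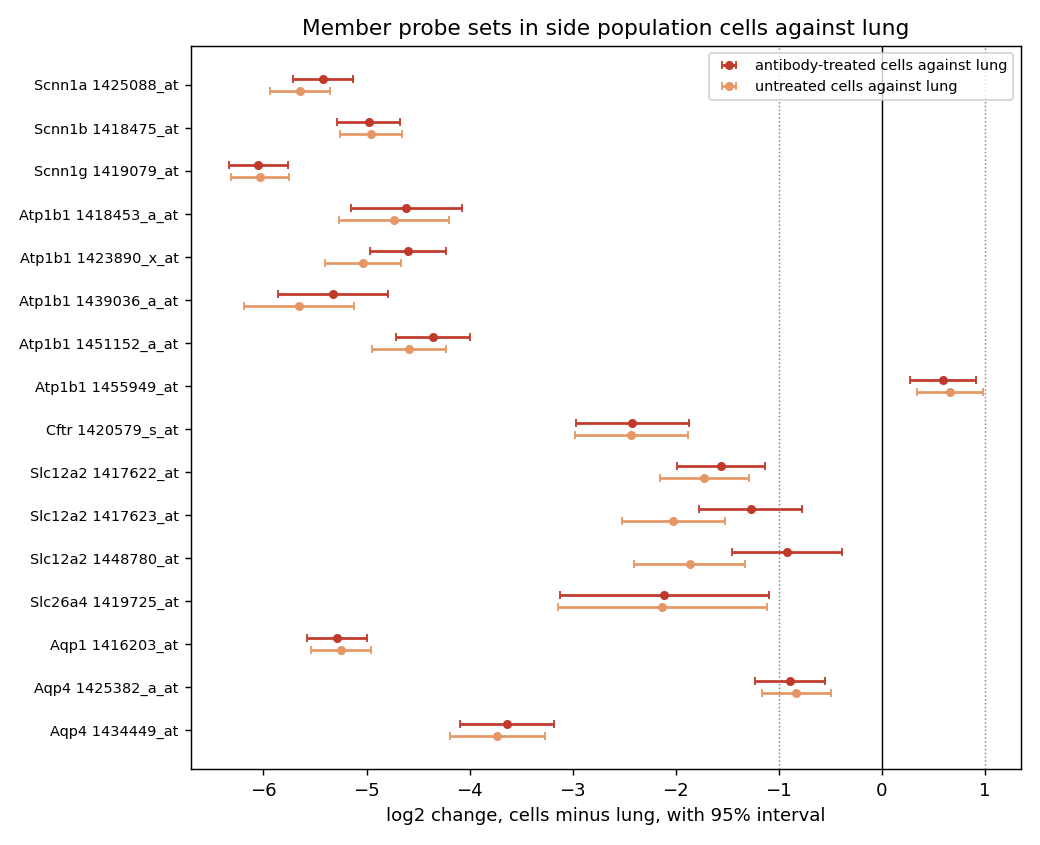
Log2 change against lung of the 16 tested probe sets, with 95% intervals of the limma fit, in antibody-treated cells (red) and untreated cells (orange), with dotted lines at a 2-fold change. The ENaC subunits, Aqp1 and 4 Atp1b1 probe sets lie between -4.35 and -6.05, Aqp4 1434449_at lies near -3.64, and Cftr, Slc12a2 and Slc26a4 lie nearer 0; Atp1b1 1455949_at is the sole one above 0.

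Markers of the cell types that make up lung moved with these genes. All 8 endothelial markers were lower than lung in both cell groups, with a summed intensity of 74.2 to 91.2 in antibody-treated cells and 78.1 to 83.7 in untreated cells, against 13910 to 26490 in lung. Pecam1, Cdh5, Tek, Tie1, Calcrl and Vwf were under 16 on all 6 cell arrays. All 7 markers of alveolar type 2 cells tested were lower, with sums of 622 to 666 in antibody-treated cells and 545 to 650 in untreated cells, against 35730 to 53690 in lung. Of 8 markers of alveolar type 1 cells 7 were lower, and the eighth, Pdpn, had a log2 change of -0.44 in untreated cells. Of 6 tested markers of ionocytes, the airway cell type rich in Cftr, 5 were lower, with sums of 72.5 to 81.4 in antibody-treated cells and 47.9 to 84.8 in untreated cells, against 1165 to 2924 in lung. The sixth, Ascl3, went the other way and was not called, with log2 changes of 0.44 in antibody-treated and 0.34 in untreated cells. Foxi1 did not pass the filter and was not tested. In lung the largest means were 494 for Atp6v1c2 and 464 for Atp6v0d2, against 32.3 for Ascl3. All 5 club cell markers and all 6 leukocyte markers were also lower in both cell groups, as were 3 of 5 ciliated cell markers, 3 of 3 erythroid markers and 4 of 6 smooth muscle and fibroblast markers, of which 1 was higher. Epithelial markers summed to 1761 to 2461 in antibody-treated cells and 1720 to 3068 in untreated cells, against 8757 to 17620 in lung, and 5 of 6 were lower. The exception, Krt19, carried most of the cell sums, with means of 1559 in antibody-treated cells, 1732 in untreated cells and 2072 in lung. Epcam and Cldn7 were under 16 on all 6 cell arrays. The part of any of these cell types in the difference of the 9 genes was not tested.

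Other genes of the same transport steps did not all follow. The lists below were tested with 1 probe set per gene, and the genes named are the called ones with the largest fall and rise in untreated cells. The limit set by the filter on low values applies to these lists too. Over all tested probe sets 19.6% were lower in each cell group. In antibody-treated cells 19.8% were higher, and in untreated cells 20.1%. Of the genes named below, Prss8, Fxyd1, Slc4a5 and Kcnj15 entered through lung alone, and Clcn2 and Slc12a1 through the cells alone. For them the direction of the call follows largely from the filter, and their values describe signal against background. Of 15 genes that process or regulate ENaC, 9 were lower and none higher in antibody-treated cells (median log2 change -1.11), and 9 were lower and 1 higher in untreated cells (median -1.03). The largest fall was of Prss8, a membrane protease that activates ENaC, at 0.00943 ± 0.0048 in antibody-treated cells and 0.00341 ± 0.00105 in untreated cells, against 647 ± 135 in lung. Stk39, a kinase that phosphorylates cation-chloride cotransporters, was higher in untreated cells (log2 change 1.11 ± 0.35; limma, adjusted p = 0.00631) but missed 2-fold in antibody-treated cells (0.94 ± 0.35).

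Of 9 tested Na,K-ATPase and FXYD subunits 4 were lower in antibody-treated cells (median -0.92) and 5 in untreated cells (median -1.09). Fxyd1, phospholemman, a regulator of the pump, averaged 0.724 ± 1.24 in antibody-treated cells and 1.77 ± 2.92 in untreated cells, against 1187 ± 266 in lung. Atp1b3, another beta subunit, averaged 1365 ± 104 in antibody-treated cells and 1508 ± 185 in untreated cells, against 2052 ± 200 in lung, a log2 change of -0.49 ± 0.08 in untreated cells that was under 2-fold; it was singled out after its values were seen. The Na,K-ATPase alpha subunits were not analysed here.

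Of 7 other aquaporins tested 2 were lower and 1 higher in antibody-treated cells, and 1 was lower and none higher in untreated cells. Aqp5, the water channel of alveolar type 1 cells and airway glands, averaged 70.9 ± 10.6 in antibody-treated cells and 83.7 ± 22.6 in untreated cells, against 3148 ± 553 in lung (log2 change -4.79 ± 0.13 in untreated cells; limma, adjusted p = 4.30e-20). Of 11 anion channels and exchangers 3 were lower and 1 higher in each cell group. Slc4a5, a sodium bicarbonate cotransporter, was lower (log2 change -3.39 ± 0.16 in untreated cells), while Clcn2, a voltage-gated chloride channel, was higher (2.55 ± 0.20), with 98.6 ± 33.2 in antibody-treated cells and 93.9 ± 12.7 in untreated cells, against 6.86 ± 5.66 in lung. Of 6 cation-chloride cotransporters besides Slc12a2, 2 were lower and 1 higher in each cell group. Over all tested probe sets 19.6% were lower in each cell group, and 19.8% in antibody-treated and 20.1% in untreated cells were higher. With 6 to 11 genes in a list, the counts of these lists are not read as a departure from those shares. Slc12a1, the kidney cotransporter NKCC2, averaged 67.3 ± 20.0 in antibody-treated cells and 68.1 ± 10.1 in untreated cells, against 6.96 ± 4.41 in lung, and the log2 change of Slc12a8 in untreated cells was -2.73 ± 0.23.

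Of 8 tested potassium channels of epithelia 7 were lower and none higher in each cell group, with median log2 changes of -3.76 in antibody-treated cells and -3.43 in untreated cells. Of these 8 only Kcnn4, which was not called, was read on at least 3 of the cell arrays. The 7 lower channels entered through lung alone, so they could hardly come out other than lower. This count and these medians therefore describe signal in lung against cells near background. Kcnj15, an inward rectifier channel, averaged 16.2 ± 9.25 in antibody-treated cells and 13.4 ± 1.27 in untreated cells, against 1261 ± 271 in lung. Of 3 tested sodium-proton exchangers 1 was higher in each cell group, Slc9a5, with a log2 change of 1.27 ± 0.17 in untreated cells (limma, adjusted p = 2.99e-07). These values carry the SD of the arrays (n = 3 for each cell group and n = 16 for lung). No gene of these lists was called between antibody-treated and untreated cells or between female and male lung.

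**Figure D3:**
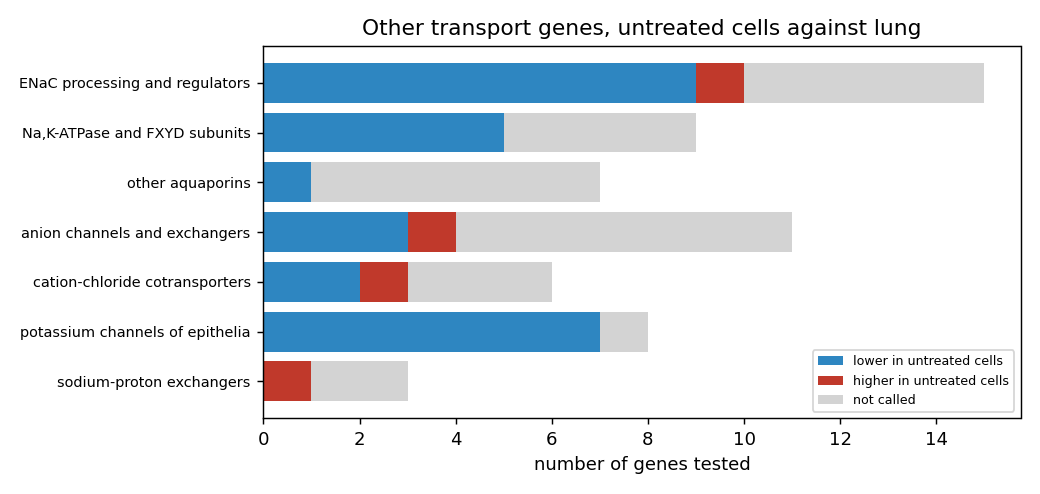
Number of tested genes in 7 lists of ion and water transport genes that were lower (blue), higher (red) or not called (grey) in untreated cells against lung. Potassium channels of epithelia have 7 of 8 genes lower, ENaC processing and regulators 9 of 15, and other aquaporins 1 of 7. Over all tested probe sets 19.6% were lower and 20.1% higher. The 7 potassium channels entered the test through lung alone.

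The genes most like each member over the 22 arrays were taken as those with the smallest root mean square difference of log2 values, each centred on its own mean. They were Mme (0.217) and Ldb2 (0.234) for Scnn1a, Abca8a (0.181) and Rnf186 (0.195) for Scnn1b, and Foxa1 (0.182) and Ptprb (0.187) for Scnn1g. For Atp1b1 they were Slc39a4 (0.236) and Ppp1r9a (0.246), for Aqp1 Unc45b (0.163) and Tnfrsf19 (0.186), and for Aqp4 Ttc29 (0.200) and Fam166c (0.211). For Cftr they were Lrrc74b (0.200) and 1700094D03Rik (0.270), and for Slc12a2 Tmem139 and C77080 (0.216 each). Slc26a4 had no close partner, with Mmp12 at 0.406 and Akr1c19 at 0.447. This measure is set mainly by the step between cells and lung where that step is large.

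The next question was whether the antibody changed these genes in the cells. No probe set of the 9 genes was called. Of the 18 probe sets 9 were tested, belonging to Atp1b1, Slc12a2 and Aqp1, since the others were not read on at least 3 of the 6 cell arrays. Over all 27499 tested probe sets 0.00364% were called higher and 0.00727% lower, that is 1 and 2 probe sets, and 331 had an unadjusted p under 0.05, as had 2 of the 9. The median log2 difference was 0.235 over the 9 and -0.01 over all tested probe sets.

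Both of those belonged to Slc12a2. Its probe set 1448780_at had 131, 136 and 81.7 in antibody-treated cells and 56.1, 41.6 and 54.9 in untreated cells. All 3 treated arrays lay above all 3 untreated arrays, with a log2 difference of 0.95 ± 0.20 (95% interval 0.50 to 1.39; limma, unadjusted p = 0.00108, adjusted p = 0.9999). Its probe set 1417623_at had 68.0, 107 and 30.3 in antibody-treated cells and 36.0, 30.7 and 28.4 in untreated cells. These groups overlapped, and the log2 difference of 0.75 ± 0.32 rested on replicates 1 and 2 (limma, unadjusted p = 0.0442, adjusted p = 0.9999). The best-read probe set of the gene, 1417622_at, overlapped between the groups, with a difference of 0.16 ± 0.30 (95% interval -0.53 to 0.85). All 3 differences of Slc12a2 were positive and their 95% intervals overlapped, but their sizes ran from 0.16 to 0.95 and none was called.

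For Atp1b1 1423890_x_at the log2 difference was 0.43 ± 0.28 (95% interval -0.21 to 1.07; limma, adjusted p = 0.9999), with overlapping groups. The other 4 Atp1b1 probe sets had differences between -0.07 and 0.33. For Aqp1 the difference was -0.04 ± 0.14 with an interval of -0.36 to 0.28, the narrowest of the 9, so a change of 2-fold lay outside it. Scnn1a, Scnn1b, Scnn1g, Cftr, Slc26a4 and Aqp4 were too dim in the cells for a difference to be measured.

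**Figure D4:**
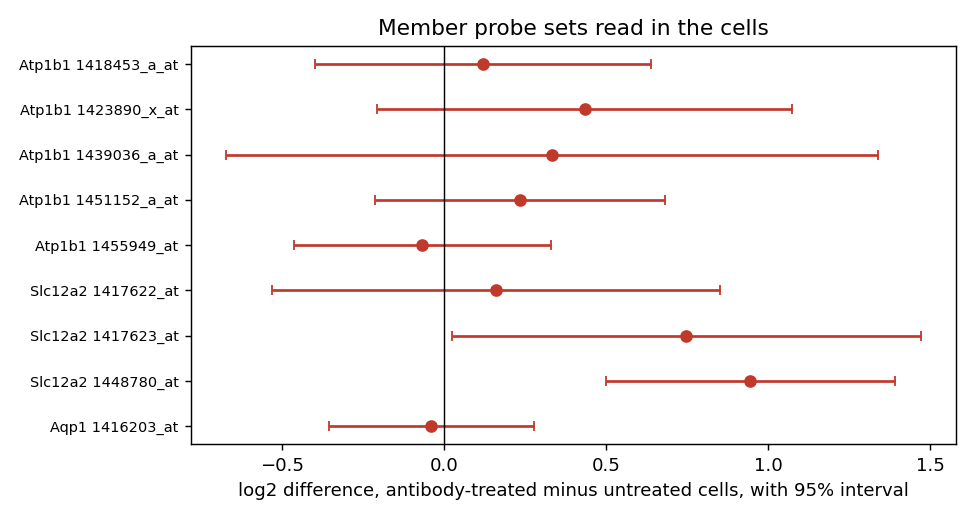
Log2 difference, antibody-treated minus untreated cells, of the 9 probe sets read in the cells, with 95% intervals of the limma fit (n = 3 arrays each). The intervals of 7 include 0; those of Slc12a2 1417623_at and 1448780_at lie above 0, and neither was called after adjustment.

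Within lung, no probe set of the 9 genes was called between arrays labelled female and male. Over all 29538 tested probe sets 0.0508% were higher and 0.0576% lower in female lung. The 16 tested probe sets had a median log2 difference of -0.04, against 0.000234 over all probe sets, and the lowest unadjusted p was 0.0433, for Atp1b1 1418453_a_at (log2 difference -0.46 ± 0.21; limma, adjusted p = 0.479). Without the arrays labelled male 3 and male 4 the difference of this probe set was -0.17 ± 0.15 (limma, adjusted p = 0.803), and those of the other 3 well-read Atp1b1 probe sets, -0.22 to -0.26 with these arrays, were -0.03 to -0.06. That of Cftr was 0.00577 without them, against 0.33 with them, and that of Scnn1b was -0.20 ± 0.07 (limma, adjusted p = 0.281), against -0.05 ± 0.11. None was called without them either. The difference of Slc26a4 was 0.76 ± 0.22 (limma, adjusted p = 0.191), against 0.08 ± 0.43 with them. In the 8 female arrays Slc26a4 had 74.4, 121 and 241 (lowest, median and highest), against 29.4, 90.8 and 530 in the 8 with a male label.

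The arrays labelled male 3 and male 4 stood apart for most of the 9 genes, in both directions. Of the 16 tested probe sets both arrays lay above the range of the other 14 lung arrays for 7 and below it for 5, while of all 29538 probe sets 8.39% were above and 8.22% below. Above were Slc26a4, with 465 and 530 on these arrays against 29.4 to 241 on the other 14, the best-read Slc12a2 probe set, with 3096 and 3261 against 1379 to 2430, and Slc12a2 1448780_at, with 570 and 560 against 178 to 403. All 4 well-read Atp1b1 probe sets were above too, 1423890_x_at with 5184 and 5566 against 2720 to 3931.

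Below were the beta and gamma ENaC subunits and both water channels. Scnn1b had 607 on male 3 and 585 on male 4, against 752 to 1051 on the other 14. Scnn1g had 1024 and 849, against 1214 to 1533. Scnn1a did not follow its partner subunits: it had 2004 and 1783, within the 1564 to 2444 of the other 14. Cftr had 54.1 and 8.13, against 63.1 to 122. Aqp1 had 4122 and 3459, against 4601 to 5925, and Aqp4 had 117 and 95.7, against 144 to 336.

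Some cell type markers stood apart on the same arrays and others did not. The summed endothelial markers were 18880 on male 3 and 13910 on male 4, against 21070 to 26490 on the other 14, and the epithelial markers were 15580 and 17620, against 8757 to 13340. The alveolar type 2 markers were 52340 and 53690, against 35730 to 47060, and the ionocyte markers were 2924 and 2854, against 1165 to 1818. The smooth muscle and fibroblast markers were 8488 and 7181, against 8682 to 11520, and the ciliated cell markers were 3916 and 3589, against 3925 to 5855. The leukocyte markers were 14160 on each, within the 10140 to 14420 of the other 14. The alveolar type 1 markers were 32950 and 28180, against 30180 to 36010, and the club cell markers 39180 and 38730, against 39040 to 51520, so for both male 4 alone lay outside. The same held for the erythroid markers, with 2316 and 1089, against 1613 to 3360. The part of these markers in the values of the 9 genes was not tested. The arrays are 2 samples picked out by their sex-linked transcripts, with no label that sets them apart, so no test was made.

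**Figure D5:**
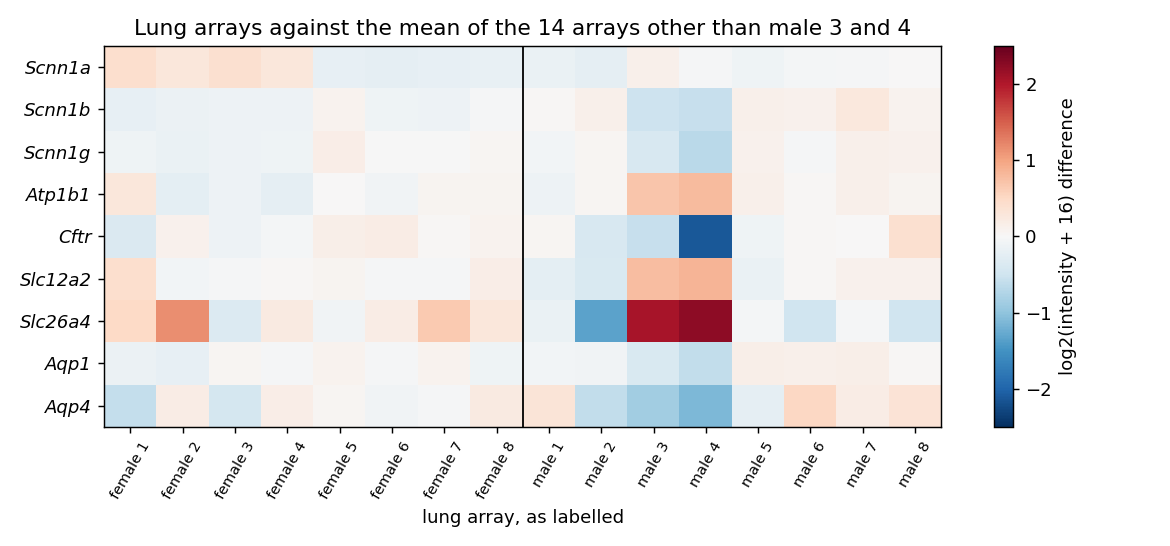
Log2(intensity + 16) of the best-read probe set of each gene on each lung array, minus the mean of the 14 arrays other than male 3 and male 4, on a colour scale from blue (lower) to red (higher). The arrays labelled male 3 and male 4 are red for Atp1b1, Slc12a2 and Slc26a4 and blue for Scnn1b, Scnn1g, Cftr, Aqp1 and Aqp4; Scnn1a is red on female 1 to female 4.

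The shared variation of the 9 genes across lung passed its test only with these arrays. Of 36 pairs of genes, 27 passed an adjusted p of 0.05 by Pearson's r over all 16 lung arrays (permutation test, 100000 resamples) and 5 passed by both r and Spearman's rho. Over the 14 arrays without male 3 and male 4 none of the 36 passed by either. Since these arrays form a cluster of their own, no pooled r is given. The closest pair over the 14 arrays was Scnn1b with Scnn1g, with r = 0.753 and rho = 0.666 (permutation, adjusted p = 0.059 and 0.206), and r = 0.592 without the 2 arrays farthest from the median of Scnn1b. Within the 8 female-labelled arrays r was 0.818, and within the 6 arrays of male label other than male 3 and male 4 it was 0.873.

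Scnn1a varied in its own way. The 4 arrays female 1 to female 4 had 2444, 2215, 2407 and 2214, while the highest of the other 12 lung arrays had 2004 and the other 4 female arrays had 1566 to 1608. Scnn1b and Scnn1g went the other way, with 752 to 804 and 1214 to 1265 on female 1 to female 4, against 805 to 933 and 1341 to 1533 on female 5 to female 8. These arrays were singled out after their values were seen, so the step is a description with no test. No label distinguishes these arrays, and the cause was not tested. Across all 16 lung arrays the highest value of a best-read probe set was 1.56 times the lowest for Scnn1a, 1.71 times for Aqp1, 1.80 times for Scnn1b and 1.81 times for Scnn1g. It was 2.05 times for Atp1b1, 2.37 times for Slc12a2, 3.51 times for Aqp4, 15.0 times for Cftr and 18.0 times for Slc26a4. Without male 3 and male 4 the ratio was 1.93 for Cftr and 8.20 for Slc26a4. The value of Slc26a4 rests on male 2, at 29.4, since the next lowest array had 65.9, and without male 2 as well the ratio, taken after the values were seen, was 3.66.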

How the data were processed

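The 9 genes, the gene lists and the tests were chosen with earlier results of these data known. The deposited values are linear intensities per probe set, which the authors made with PLIER, as the submitters' processing notes list it; the version and settings of PLIER, and whether arrays were scaled, are not given in the sources used here. Gene symbols came from the platform annotation, which gave 34945 of 45037 probe sets 1 symbol, and 64 control probe sets were left out. Intensities were taken as log2(intensity + 16) and quantile normalized over 22 arrays. Probe sets above the 40th percentile on at least 3 of the compared arrays were tested with limma 3.58.1 in R 4.3.3 (lmFit, eBayes with a variance trend, two-sided), with Benjamini-Hochberg adjustment over all probe sets tested. The antibody comparison used the 6 cell arrays and the sex comparison the 16 lung arrays. Each cell group was set against the mean of female and male lung in a fit of all 4 groups, so the spread is mostly that of lung. SE are those of the fit, and printed intensities are as deposited. Array number limits the precision, as no read depth applies. The fits were tested on simulated data. Named list genes were, per list, the called ones with the largest rise and fall in untreated cells, and for each of the 9 genes the most alike others were named. Alternatives changed the normalization, offset, filter, probe set choice, variance model, block and arrays.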

Additional observations from a re-analysis of the deposited data

Results flagged for a closer look

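One array, female 1, stood apart from the other 7 female-labelled arrays for 4 probe sets, by a gap to the next array above Dixon's 95% limit for 8 samples. Of 36 groups of 8 lung arrays looked at, these 4 passed. Chance gives about 1 in 20 for a single group, but the groups share arrays and several are probe sets of 1 gene. They are not independent, so the count cannot be set against that rate. For Atp1b1 1418453_a_at the array had 2363, and the next female array had 1225. For Slc12a2 it was highest by all 3 probe sets, with 2430 for 1417622_at (next 2012), 324.6 for 1417623_at (next 217.4) and 403.2 for 1448780_at (next 284.3). The same genes were high on the arrays labelled male 3 and male 4, where Slc12a2 1417622_at had 3096 and 3261.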

How the results depend on the processing

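Of 36 pairs of genes across lung, 27 passed over 16 arrays, 27 without normalization and 28 with median centring, but 0 without the arrays labelled male 3 and male 4; the cause was not tested. No result changed its direction among those called. The count of probe sets of the 9 genes lower than lung ranged from 14 to 15 in untreated cells and from 12 to 15 in antibody-treated cells, and leaving out 1 cell array gave 14 and 12 to 14. With 1 probe set per gene or the probe sets of each gene averaged, 8 genes were lower in each cell group, as the first choice leaves Cftr to a probe set that was not tested. Without normalization the calls of Slc12a2 1448780_at (log2 change -1.18) and Aqp4 1425382_a_at (-1.02) in antibody-treated cells were gained, and with an offset of 64 that of Slc12a2 1417623_at (-0.92) was lost. No probe set of the 9 genes was called between antibody-treated and untreated cells, or between female and male lung, under any alternative; the limma adjusted p of Slc12a2 1448780_at between the cell groups ranged from 0.155 (array weights) to 0.9999. Among uncalled differences the sign differed in 11 of 138 refits of the antibody comparison and 15 of 175 of the sex comparison. Over all probe sets, 0 to 8 were higher and 0 to 6 lower in antibody-treated than in untreated cells, 1 to 63 higher and 0 to 55 lower in female than in male lung, and with an offset of 64 the calls in untreated cells against lung were 3761 higher and 4232 lower and in antibody-treated cells against lung 3743 higher and 4146 lower. Of the calls in untreated cells against lung 50.6% were higher, 40.3% without normalization and 55.2% with median centring, where the median of all probe sets was 0.145, -0.04 and 0.232; for antibody-treated cells the shares were 50.3%, 40.3% and 55.3%, with medians of 0.125, -0.07 and 0.21, and for female against male lung 46.9%, 45.5% and 34.5%. With the replicate number as a block (replicate block), 14 probe sets of the 9 genes were lower in each cell group than in lung and 0 were called between the cell groups; deviations of same-numbered cell arrays correlated at 0.0381, -0.173 and -0.0108, so the numbers do not pair them. Limits are the single cell line, the 3 arrays per cell group, probe sets near background whose fold depends on the offset, and the unstated PLIER settings.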
